A study of Rattus norvegicus with 6 samples.

Results

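Integrins and the proteins of focal adhesions connect a cell to the surface it grows on. Their mRNAs were compared here between rat bone marrow stromal cells grown on titanium with a tantalum-modified surface (Ta) and on plain titanium, which the labels call simple (Ti). The set holds 44 genes chosen by name: 12 integrin alpha subunits, 4 integrin beta subunits, 22 adaptor and signalling genes, and 6 genes of the basement membrane and its ligands. A probe was found for 44 of the 44, by exact match of the gene name printed in the array file. Of these, 42 were bright enough to test, among 19739 genes tested in all. The collagen receptor subunit Itga10 was well above background on 1 of 6 arrays and the adhesion ligand Vtn (vitronectin) on 0, so neither has a level or a difference here. Each of the 42 tested genes was well above background on all 6 arrays, and none had a saturated spot.

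The cells were taken from the marrow of rat tibias and kept on the surfaces for 7 days. The labels give neither the strain nor the age or sex of the animals. Total RNA of 3 cultures per surface was labelled with Cy3 and hybridised to 1 one-colour Agilent array each. The series' design text calls the cultures independent experiments but does not say whether animals were shared. The 6 arrays lay on 1 slide and were read in 1 scan. On that slide, row 1 held all Ta arrays with Ti replicate 1, while the other Ti arrays were in row 2. The groups are those of the sample titles, because the treatment text names the tantalum surface for every sample, the Ti samples included.

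An integrin is a pair of an alpha and a beta subunit that spans the membrane, and the alpha subunit largely sets which matrix protein is bound. Inside the cell, talin and kindlin bind the beta tail and switch the receptor on, and vinculin, paxillin, tensins and alpha-actinin tie it to actin while focal adhesion kinase and Src signal from the same site. In marrow stromal cells, adhesion through these receptors is known to guide spreading on implant surfaces and differentiation towards bone. Values below are log2 signals after scaling each array to its 75th percentile. They compare 1 probe between arrays and say nothing of one gene's abundance against another's. A difference is Ta minus Ti on that scale with its standard error (SE), and a gene passed the test where limma's p-value, adjusted by the Benjamini-Hochberg method over all genes tested, was under 0.05.

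The integrin alpha genes held the largest differences of the set in both directions. Itga6 and Itga7, which code for laminin receptor subunits, fell on Ta, while the third laminin receptor subunit measured, Itga3, had a higher mean there. The beta subunits, the focal adhesion adaptors and the laminin chains showed smaller differences, and none of them passed the test. In all, 2 of the 42 genes passed (4.76%), against 4.12% of all genes tested. Both were lower on Ta, a direction in which 1.46% of all genes passed; in the other direction 2.66% did. The share that passed in the set was thus near that of the array as a whole.

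**Figure D1:**
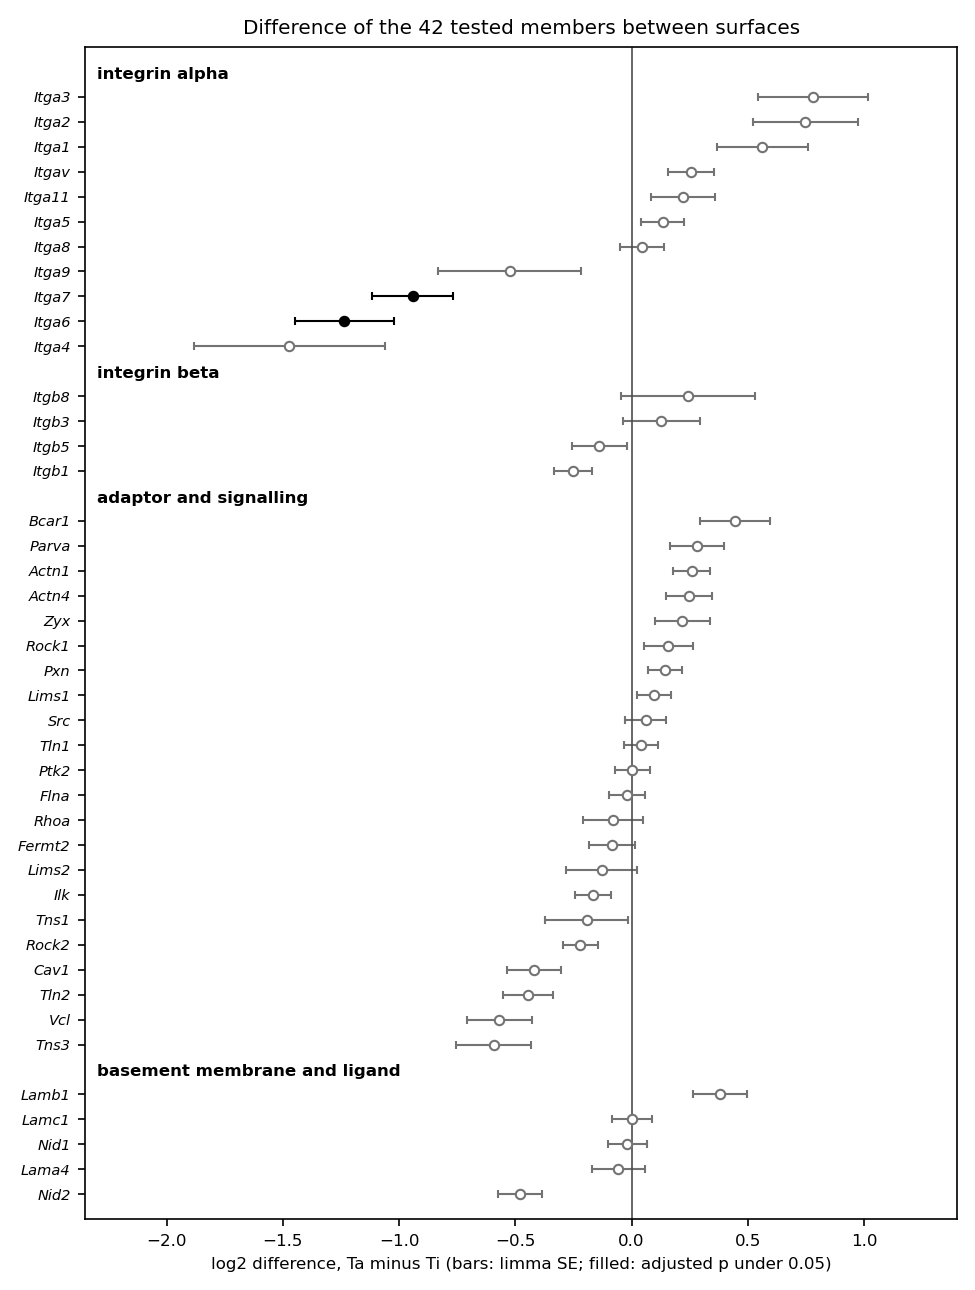
Log2 difference between surfaces (x axis, Ta minus Ti) for each of the 42 tested genes, sorted within the 4 groups on the y axis; bars are limma's SE and filled points passed the test. Itga6 at -1.24 and Itga7 at -0.94 are the filled points, and the integrin alpha genes spread more widely than the other groups, from -1.47 to 0.78.

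Itga6 had log2 signals of 8.09, 7.53 and 7.51 on Ta replicates 1 to 3 and of 9.11, 8.62 and 9.11 on Ti replicates 1 to 3. Every Ta array lay below every Ti array, with Ta replicate 1 the nearest to the Ti group. The means were 7.71 ± 0.33 (SD, n = 3) and 8.94 ± 0.28, and Itga6 fell by 1.24 (SE 0.21) on the log2 scale, which is 2.35-fold (limma adjusted p = 0.0452). The subunit pairs with beta 1 or beta 4 to bind laminins. The array carried another Itga6 probe, which was dimmer, also had groups that did not overlap, and differed by -0.77. The first 30 bases of these probes, in probe orientation, are shown because the fall was seen with both, and they are followed by the Itga7 probe, the only one for that gene.
Itga6, brightest probe: atgacaacccgagttacctttctttgtatt
Itga6, other probe: ctcacaactcaagaaagaagcgggaacttc
Itga7, only probe: agccaacatcacagtgaaatcctccattaa
The array file places the brightest Itga6 probe at chr3:54274884-54274943 and the other at chr3:54263800-54263859, so they read separate stretches of the gene, and the Itga7 probe at chr7:2264646-2264705. All 3 positions are on the plus strand of rat build rn4. The exon or UTR they fall in is not annotated in the sources used here.

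Itga7, best known as the laminin receptor subunit of muscle, read 4.84, 4.55 and 4.74 on the Ta arrays and 5.93, 5.32 and 5.71 on the Ti arrays. These signals are low, but the Ta and Ti values did not overlap. Itga7 fell by 0.94 (SE 0.17) on the log2 scale, which is 1.92-fold (limma adjusted p = 0.0465). After a different background correction (normexp), the Itga7 difference was -0.25 and did not pass (limma adjusted p = 0.0717), so its size depends on how the background of this dim probe is treated. For Itga6 the same correction gave -0.99, past the test.

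The calls depend on 4 of the 6 arrays. Leaving out replicate 2 or 3 of Ta, or replicate 1 or 3 of Ti, ended both: the limma adjusted p was then between 0.134 and 0.165 for Itga6 and between 0.133 and 0.173 for Itga7, and 0 genes of the whole array passed by limma (3838 to 4491 had an unadjusted p under 0.05). Without Ta replicate 1, Itga6 differed by -1.42 and Itga7 by -1.01, and both passed. Without Ti replicate 2 they differed by -1.40 and -1.11 and both passed (limma adjusted p = 0.0364 and 0.0299). With slide row as a term, which leaves Ti replicate 1 as the comparison for the 3 Ta arrays of its row, the differences were -1.40 and -1.22 and neither passed (limma adjusted p = 0.192 and 0.187). Every one of 17 alternative settings kept both genes lower on Ta. Itga6 passed in 10 of them and Itga7 in 9.

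The largest difference in the set belonged to Itga4, and it did not pass. This subunit of the fibronectin and VCAM-1 receptor is abundant on blood-derived cells. Its signals were 9.0, 8.21 and 7.66 on Ta and 10.04, 9.12 and 10.13 on Ti. The groups did not overlap, but Ta replicate 1 and Ti replicate 2 came close to each other, and the spread within each group was wide. The difference was -1.47 (SE 0.41; limma adjusted p = 0.0823). Without Ta replicate 1 it was -1.82 and passed (limma adjusted p = 0.0325).

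Itga3 and Itga2 had the largest positive differences. Itga3, a laminin receptor subunit, read 8.47, 9.09 and 9.40 on Ta and 8.29, 8.06 and 8.25 on Ti. Its difference was 0.78 (SE 0.24; limma adjusted p = 0.0939). The Ta arrays were all higher, with Ta replicate 1 close to the Ti arrays, and the other Itga3 probes differed by 1.3 and 0.82. Itga2, a collagen receptor subunit, read 7.97, 8.73 and 8.76 on Ta and 7.65, 7.88 and 7.70 on Ti. Its difference was 0.75 (SE 0.23; limma adjusted p = 0.0936), and another Itga2 probe differed by 1.12. Here too the groups did not overlap and Ta replicate 1 was the Ta array nearest to Ti. Without Ta replicate 1, Itga3, Itga2 and the collagen receptor subunit Itga1 passed in the positive direction.

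The remaining alpha genes passed neither way. The difference of Itga1 was 0.56, that of Itgav, the subunit shared by vitronectin and latent TGF-beta receptors, was 0.25, and that of the collagen receptor subunit Itga11 was 0.22. Itga5, the fibronectin receptor subunit, differed by 0.13 and Itga8, which binds nephronectin, by 0.05. Itga9, a receptor subunit for tenascin-C, differed by -0.53 with overlapping groups. Of the 11 alpha genes tested, 7 had groups that did not overlap, 4 of them higher and 3 lower on Ta. Over the 42 genes of the set that count was 21 (50%), against 35.8% of all genes tested. By direction, 10 of the 42 were higher and 11 lower without overlap, against 19.5% and 16.3% of all genes. By unadjusted limma p under 0.05 the count was 18 of 42, against 29.9% of all genes: 8 higher (16.7% of all genes) and 10 lower (13.2%). The median absolute difference was 0.56 over the alpha genes, 0.22 over the whole set and 0.20 over all genes tested.

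**Figure D2:**
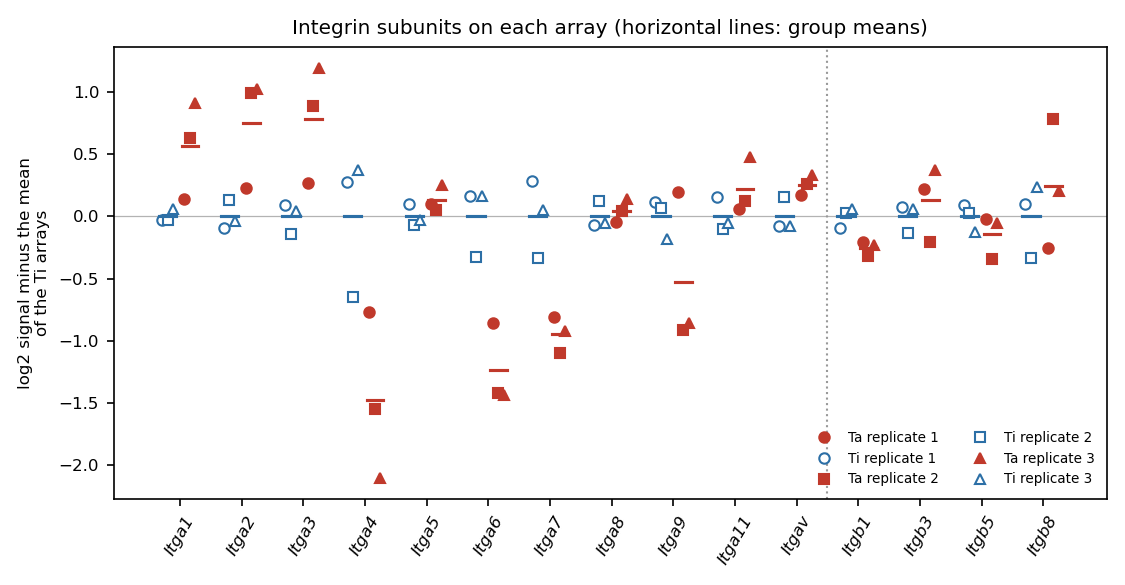
Log2 signal of each integrin subunit tested on each array minus the mean of its 3 Ti arrays (y axis), with alpha subunits left and beta subunits right of the dotted line on the x axis; filled red symbols are Ta arrays, open blue symbols Ti arrays, and short lines group means. For Itga1, Itga2, Itga3, Itga4, Itga6 and Itga7 the groups do not overlap, and Ta replicate 1 (filled circle) is the Ta array nearest to Ti in each of them.

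The opposed laminin receptor subunits can be compared within each array, where the scaling between arrays cancels. The log2 signal of the Itga3 probe minus that of the Itga6 probe, set to a mean of 0 over the Ti arrays, was 1.12, 2.30 and 2.63 on the Ta arrays and -0.07, 0.19 and -0.11 on the Ti arrays. This balance between the probes was shifted by 2.02 towards Itga3 on Ta, with no overlap (two-sided exact permutation p = 0.1, the smallest that 3 against 3 arrays can give). For Itga3 minus Itga7 the shift was 1.72, also without overlap and with the same exact permutation p. Itga6 and Itga7 shifted little against each other, by -0.29 (exact permutation p = 0.2). These pairs were chosen with the differences of the single genes known. On every Ta array Itga3 lay above all Ti arrays, and Itga6 and Itga7 below them. For both pairs with Itga3, the lack of overlap and the exact permutation p of 0.1 were therefore fixed beforehand. The shifts describe the arrays and are no further evidence for the differences.

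No integrin beta subunit passed the test. Itgb1, the partner of most of the alpha subunits above, read 15.48, 15.37 and 15.46 on Ta and 15.60, 15.72 and 15.75 on Ti. Its groups did not overlap, the difference was -0.25 (SE 0.08; limma adjusted p = 0.105), and a second Itgb1 probe gave -0.36. It was the 1 beta gene of 4 with an unadjusted limma p under 0.05 (29.9% of all genes had one).

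Itgb3, which pairs with the alpha v subunit as a vitronectin receptor, read 4.49, 4.06 and 4.64 on Ta and 4.35, 4.14 and 4.33 on Ti. The groups overlapped and the difference was 0.13, with a 95% interval of -0.27 to 0.53 (limma adjusted p = 0.635). Itgb5, another partner of alpha v, read 10.33, 10.02 and 10.30 on Ta and 10.45, 10.39 and 10.23 on Ti. The groups overlapped again, with a difference of -0.14 and an interval of -0.43 to 0.15 (limma adjusted p = 0.470).

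Itgb8, whose product with alpha v activates latent TGF-beta, gave a different picture by probe. Its brightest probe read 4.34, 5.38 and 4.80 on Ta and 4.69, 4.26 and 4.84 on Ti. The groups overlapped, and the difference was 0.24 with an interval of -0.45 to 0.94 (limma adjusted p = 0.603). The other Itgb8 probe read 4.63, 5.22 and 4.96 on Ta and 4.14, 3.77 and 3.83 on Ti, which is a difference of 1.03 without overlap. On Ti that probe was well above background on 1 of 3 arrays, so its Ti level is mostly a bound. Both probes are shown, again by their first 30 bases, because the result for Itgb8 depends on which is read.
Itgb8, brightest probe: tagcttctttatgaaggtctgtaaatttta
Itgb8, other probe: gaaataaaaatggatatcagcaaactaaac
They lie on the minus strand of rn4, at chr6:146490398-146490457 and chr6:146494978-146495037.

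Of the 22 adaptor and signalling genes, 0 passed limma's adjusted threshold and 8 had an unadjusted limma p under 0.05 (29.9% of all genes did), 3 of them higher and 5 lower on Ta. Groups did not overlap for 11 of the 22 (35.8% of all genes), 5 higher and 6 lower (19.5% and 16.3% of all genes). The median difference was -0.01, and 17 of the 22 differed by less than 0.3 in size. Without Ta replicate 1, when 16.4% of all genes passed, 6 adaptor genes did: Bcar1 in the positive direction, and Cav1, Tln2, Tns1, Tns3 and Vcl in the negative.

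The structural linkers Tns3, Vcl and Tln2 differed most. Tns3, a tensin that joins integrin tails to actin, read 13.47, 13.15 and 13.16 on Ta and 13.96, 13.56 and 14.04 on Ti. Its groups did not overlap, though Ta replicate 1 lay just below Ti replicate 2, and the difference was -0.59 (SE 0.16; limma adjusted p = 0.0777). Vcl, coding for vinculin, which reinforces the link to actin under load, read 11.96, 11.59 and 11.64 on Ta and 12.29, 12.14 and 12.48 on Ti. All Ta arrays were lower, by a mean difference of -0.57 (SE 0.14; limma adjusted p = 0.0679).

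Tln2, one of the talins that switch integrins on, read 7.82, 7.62 and 7.73 on Ta and 8.29, 8.0 and 8.21 on Ti. The difference was -0.45 without overlap (SE 0.11; limma adjusted p = 0.0664). A second Tln2 probe differed by 0.09 with overlapping groups, so the lower Tln2 signal was not seen by both probes. The paralog Tln1, the talin found in most cells, differed by 0.04 with an interval of -0.14 to 0.22.

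Among the scaffolds and kinases, Bcar1 (p130Cas, a docking protein phosphorylated by Src) differed by 0.44 and the alpha-actinin genes Actn1 and Actn4 by 0.26 and 0.25. Cav1, the caveolin that associates with integrins and Src, differed by -0.42. By their brightest probes, all 4 had groups that did not overlap, and none passed. A second Actn4 probe differed by 0.008 with overlapping groups. Ptk2, coding for focal adhesion kinase, had a difference of 0.00 with a 95% interval of -0.18 to 0.18. Its neighbours in the adhesion, Pxn (paxillin) at 0.14, Src at 0.06 and Zyx (zyxin) at 0.22, also did not pass. The other, dimmer Src probes bright enough to test differed by 0.34 without overlap and by 0.52 with overlapping groups.

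The complex of integrin-linked kinase, parvin and PINCH, which docks on beta tails, showed no common direction. Ilk differed by -0.16, Lims1 by 0.10 and Lims2 by -0.13. Fermt2, coding for kindlin-2, differed by -0.09, the actin crosslinker Flna by -0.02 and the tensin Tns1 by -0.19. Among genes that drive actomyosin tension, Rhoa differed by -0.08, and its effector kinases Rock1 and Rock2 by 0.16 and -0.22. None of these 9 genes passed.

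Parva, the parvin of that complex, is a case where the probes of 1 gene point in opposite directions. The brightest probe read 11.15, 11.40 and 11.45 on Ta and 10.98, 11.20 and 10.98 on Ti, a difference of 0.28. The other read 8.70, 8.84 and 8.84 on Ta and 9.34, 8.76 and 9.12 on Ti, a difference of -0.28. The groups overlapped for both. Their first 30 bases are shown because the sign for Parva depends on which probe is read.
Parva, brightest probe: ctgaagtccacgctgagagtgctgtacaac
Parva, other probe: gcggctgttctaaggattgttattcagcac
They lie on the plus strand of rn4 at chr1:170387784-170387843 and chr1:170389823-170389882, so they read separate stretches of the gene. Of the 18 genes with more than 1 probe bright enough to test, 13 had probes of 1 sign only, Itga2, Itga3, Itga6 and Itgb1 among them. The 5 with probes of both signs were Parva, Tln2, Rhoa, Rock1 and Nid1.

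**Figure D3:**
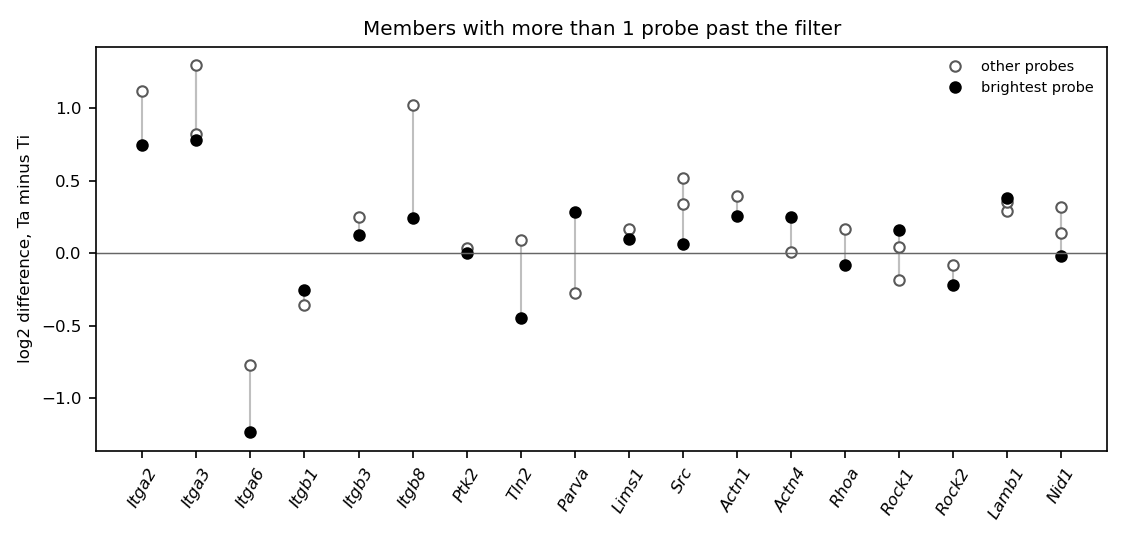
Log2 difference between surfaces (y axis, Ta minus Ti) of every probe past the brightness filter, for the 18 genes with more than 1 such probe (x axis); filled points are the brightest probe, used in the tests, and open points the others. The probes of Itga2, Itga3 and Itga6 lie on the same side of 0, while those of Parva and Tln2 lie on opposite sides.

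The basement membrane genes tested were 3 laminin chains and both nidogens, which bridge laminin to collagen IV. Of the 5, 0 passed limma's adjusted threshold and 2 had an unadjusted limma p under 0.05 (29.9% of all genes did), Lamb1 higher and Nid2 lower on Ta. Nid2 came nearest: it read 10.42, 10.17 and 10.18 on Ta and 10.74, 10.73 and 10.72 on Ti. The Ti arrays were almost level and every Ta array lay below them, for a difference of -0.48 (SE 0.09; limma adjusted p = 0.0507). Under 6 of the 17 alternative settings it passed, among them scaling by the median (limma adjusted p = 0.0493). The other nidogen, Nid1, differed by -0.02.

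Of the laminin chains, Lamb1 read 13.68, 13.70 and 13.77 on Ta and 13.22, 13.56 and 13.22 on Ti. Ti replicate 2 lay apart from the other Ti arrays but still below Ta, and the difference was 0.38 (SE 0.12; limma adjusted p = 0.0939). Lama4 read 11.19, 10.98 and 10.99 on Ta and 11.07, 11.29 and 10.98 on Ti, with overlapping groups and a difference of -0.06 (SE 0.12; limma adjusted p = 0.775). Lamc1, the gamma chain of most laminins, differed by 0.00 with an interval of -0.21 to 0.21. None of the 3 chains, which are built into laminin trimers, passed.

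Over the 42 genes, 22 differences were positive and 20 negative, with a median of 0.00 against 0.03 over all genes tested. Ta replicate 1 was the Ta array nearest to the Ti group for 33 of the 42 (78.6%), against 57.3% of all genes tested. Without that array 14 of the 42 (33.3%) passed, 4 higher and 10 lower, against 16.4% of all genes. Without Ti replicate 2, 5 (11.9%) passed, against 8.09% of all genes. With any other array left out 0 passed by limma, while 11 or 12 of the 42 had an unadjusted limma p under 0.05.

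The count of the set that passed changed with the settings of the fit, as did that of the whole array. It was 10 of 42 (23.8%) with normexp background correction, against 13.5% of all genes, and 8 (19%) with trend and robust variance estimates, against 10.5%. With array weights it was 24 (57.1%), against 51.9%. It was 3 (7.14%) with median scaling (3.95% of all genes) or with detection required on all arrays (6.6%), and 2 (4.76%) with quantile scaling (3.89%), scaling on detected probes (4.16%) or the mean of each gene's probes (4.06%). With the replicate number as a block it was 0 (0.0405% of all genes; 13 of the 42 by unadjusted limma p).

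Among other adhesion genes, listed by function, 5 of 105 tested passed, or 4.76%, which is near the 4.12% of all genes tested. Of 7 further integrin subunits, among them the leukocyte and platelet ones, 0 passed, and the median difference was -0.22. By unadjusted limma p under 0.05 the count was 1, against 29.9% of all genes. The platelet subunit Itga2b is also one of the platelet markers below. Of 73 further adaptors, Ptk2b rose and Dock1 fell (2.66% and 1.46% of all genes did). Ptk2b, the focal adhesion kinase relative Pyk2, read 11.38, 11.52 and 11.43 on Ta and 10.69, 10.92 and 10.73 on Ti (difference 0.67, SE 0.09; limma adjusted p = 0.0397). Dock1, an exchange factor that activates Rac downstream of p130Cas, fell by 0.63 on the log2 scale (SE 0.12; limma adjusted p = 0.0494). Ptk2b and its paralog Ptk2 thus had differences of 0.67 and 0.00; the contrast between them was not tested.

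Of 25 further matrix and basement membrane genes, 3 fell and 0 rose (1.46% and 2.66% of all genes). Fbln2, coding for fibulin-2, which binds nidogen and laminin, read 10.72, 10.59 and 10.26 on Ta and 11.55, 11.59 and 11.59 on Ti, and fell by 1.06 (SE 0.13; limma adjusted p = 0.0397). Tnc, coding for tenascin-C, a ligand of Itga9, fell by 0.83 (SE 0.16; limma adjusted p = 0.0495), and the thrombospondin gene Thbs1 fell by 0.61 (SE 0.08; limma adjusted p = 0.0397). The further probes of these 3 genes also had lower means on Ta, but that of Thbs1, at -0.35, had overlapping groups. All 5 calls were lost without replicate 2 or 3 of Ta, and without replicate 1 or 3 of Ti.

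Markers of other cells moved beside the integrin differences. Stromal markers were high on every array, with a mean log2 signal over 11 genes of 12.72 to 12.77 on Ta and 12.53 to 12.60 on Ti, although Lepr was not above background on any. Of these 11, Cxcl12 rose by 1.06 (limma adjusted p = 0.0453) and Thy1 by 0.67 (limma adjusted p = 0.0439), and 0 passed in the other direction. Of all genes tested, 2.66% passed as higher and 1.46% as lower on Ta. The list had 6 positive and 5 negative differences, among the latter Eng at -0.37 without overlap (limma adjusted p = 0.0523). Macrophages and monocytes can persist in marrow cultures, and their markers were detected on both surfaces. The mean log2 signal over 16 genes was 11.06, 10.14 and 9.36 on Ta replicates 1 to 3 and 11.44 to 11.54 on Ti, and their summed linear signal 68383 to 178831 on Ta and 197165 to 254478 on Ti. Of the 16, 15 had lower means on Ta and 0 passed by limma. By unadjusted limma p under 0.05, 10 were lower and 1 higher, against 13.2% and 16.7% of all genes. The largest differences were those of C1qc at -3.08 and C1qb at -2.83, and the 1 positive difference, that of Cd14, was 0.34 without overlap. The order of the Ta arrays in this mean, replicate 1 highest and replicate 3 lowest, is also that of Itga4. Itga6 was highest on Ta replicate 1 and nearly level on the other Ta arrays, and Itga7 was lowest on Ta replicate 2. The part of these cells in the integrin differences was not tested.

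Of 5 mast cell markers tested 4 fell (1.46% of all genes did). The mean log2 signal of the 5 was 5.23 to 5.57 on Ta and 7.00 to 7.66 on Ti, and their summed linear signal 782 to 861 and 1265 to 2125. Kit fell by 2.56 (limma adjusted p = 0.0488) and Mcpt8 by 2.16 (limma adjusted p = 0.0428). A second, dim Mcpt8 probe, well above background on 3 of 6 arrays, differed by -0.41 with overlapping groups. Cma1, well above background on 0 of 3 Ta arrays, was at least 3.49-fold lower on Ta, from the Ti mean against the dimmest signal well above background (limma adjusted p = 0.0356). The remaining mast cell gene, Hdc, named here after its value was seen, differed by 0.73 without overlap and did not pass (limma adjusted p = 0.0565). Of 8 mural markers 1 passed, Cspg4, which fell by 1.87 (limma adjusted p = 0.0423), while 1.46% of all genes passed in that direction. The mural list as a whole had 4 positive and 4 negative differences, with a median of -0.05. Its Pdgfrb, at 0.24, is also one of the stromal markers. Of 4 platelet markers Pf4 rose by 0.84 (limma adjusted p = 0.0481), in a list with 2 positive and 2 negative differences. As higher on Ta, 2.66% of all genes passed.

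By limma, 0 of 5 osteoclast and 0 of 9 endothelial markers passed, with 3 and 2 under an unadjusted p of 0.05 (29.9% of all genes were). The osteoclast gene Atp6v0d2 differed by -2.63 and Acp5 by -0.69, and Mmp9, named after its value was seen, by 0.63 with overlapping groups, while the osteoclast receptors Calcr and Tnfrsf11a were not above background on any array. Of the 9 endothelial genes, 7 had negative differences and 2 positive ones, Vwf at 0.06 and Robo4 at 0.02. The endothelial gene Erg, well above background on 2 of 3 Ta arrays, differed by -3.07 as measured, or by 2.35 in the same direction with its dim Ta array set to the lowest signal well above background. Another Erg probe, too dim to test, differed by -0.06. Tie1 was well above background on 2 of 3 arrays of each surface, so its measured difference of -0.99 is uncertain, and Emcn was not above background on any array. The part of any of these cells in the integrin differences was not tested. In RNA from whole cultures, fewer cells of a type and less RNA per cell cannot be told apart.

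**Figure D4:**
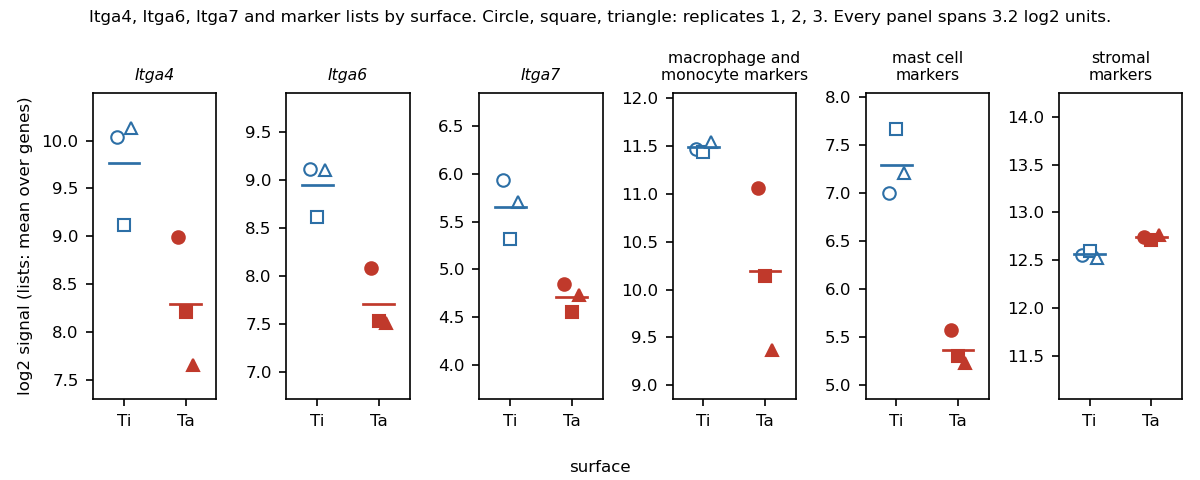
Log2 signal (y axis) of Itga4, Itga6 and Itga7 and the mean log2 signal of 3 marker lists on each array, by surface (x axis), with lines at group means; every panel spans the same number of log2 units. Macrophage markers lie at 11.06, 10.14 and 9.36 on Ta replicates 1 to 3, in the same order as Itga4 at 9.0, 8.21 and 7.66, while stromal markers lie between 12.53 and 12.77 on all arrays.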

How the data were processed

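The authors deposited 1 Agilent scanner file per array holding linear spot intensity values. Per the file headers, the background was already subtracted, and no scaling joined the arrays. Agilent Feature Extraction 12.0 and limma are named in the submitters' processing notes. The deposited value table equalled this intensity in 100% of values on every array. Across arrays, 62.7% to 65.9% of 58717 spots were well above background, and the number of arrays limits the precision. The files were not alike. On Ta replicate 2 and Ti replicate 3, 100% of values had at most 3 significant digits, against at most 0.0175% on the other arrays. In those 2 files 93 spots carried a gene name that differed from that of Ta replicate 1. Ti replicate 2 alone had the status ExtractionEvaluate, while the other arrays had ExtractionInRange. The part of these traits in the calls was not tested.

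From these values, log2 processed signal minus the array's 75th percentile was computed, outlier spots were dropped, and spots of a probe were averaged. Probes well above background on at least 3 of 6 arrays were kept, and the brightest probe stood for its gene. Other genes were named through RefSeq; for the 71 probes of the set, no RefSeq name differed. Groups were compared with limma 3.58.1 in R 4.3.3 (lmFit, eBayes, two-sided), adjusted over 19739 genes, of which 814 passed (526 higher, 288 lower on Ta). On simulated data with 19739 genes, 76% of changes of 1 and 91% of changes of 2 (log2) were recovered, and 7 of 174 calls were false. The simulated noise was normal and independent between genes, with 100 genes changed at each size. In the real data 29.9% of genes had an unadjusted limma p under 0.05, so the recovered shares need not hold there.

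The genes and marker lists were chosen with earlier results of these data known. Array values are given for genes past the test, all beta subunits, and the 3 largest other differences per group; from the further lists, up to 10 adhesion genes past the test and 3 markers (2 where none passed) are named. Alternatives covered scaling, background, filter, probe rule, variance settings, array weights, replicate number, slide row and each array left out. No promoter of Itga6 or Itga7 was used here. Samples counted as replicates are separate cultures, and p-values measure only the spread between them.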

Additional observations from a re-analysis of the deposited data

How the results depend on the processing

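Of the 42 genes, 31 kept the sign of their difference under all 17 alternatives and 11 did not. The count past limma's test was 2, and became 10 with normexp background, 8 with robust, trended variances, 24 with array weights, and 0 with no filter on dim probes or slide row as a term (15 and 8 by unadjusted p); leaving out arrays gave 0 to 14. For the other adhesion genes (5) these settings gave 21, 16, 70, 0 and 0 (31 and 22 by unadjusted p), detected-probe scaling 3, detection on all arrays 10, and arrays left out 0 to 24. For all genes (814) they gave 2662, 2077, 10250, 0 and 0 (5864 and 3861 by unadjusted p), and arrays left out 0 to 3233. The array weights ran from 0.318 to 7.32, so that fit leans on Ta replicate 2. Median scaling passed 418 higher and 361 lower genes, against 526 and 288, and moved the median of the set to -0.032; slide row moved it to 0.041. The cause of these changes was not tested. With the replicate number as a block, 0 genes of the set (13 by unadjusted p), 0 other adhesion genes (26 by unadjusted p) and 8 of all genes passed; arrays of the same number did not deviate together (correlations 0.06, 0.13 and -0.18), so the numbers were not treated as pairs.

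Sign changes were confined to 11 genes, none of which passed the test. With array weights Itgb3 was -0.19, Ptk2 -0.026, Tln1 -0.0052, Flna 0.0035 and Lamc1 -0.00070. With slide row Ptk2 was -0.044, Rhoa 0.042 and Nid1 0.097. With the mean of probes Rhoa was 0.042 and Nid1 0.15. Normexp gave Ptk2 -0.0011, Lamc1 -0.018 and Nid1 0.0018, median scaling Ptk2 -0.031 and Lamc1 -0.033, and quantile scaling Lamc1 -0.020. With arrays left out, the ranges were -0.00044 to 0.11 for Itga8, -0.026 to 0.49 for Itgb8, -0.025 to 0.027 for Ptk2, -0.22 to 0.00027 for Lims2, -0.053 to 0.014 for Flna, -0.20 to 0.0039 for Rhoa, -0.13 to 0.032 for Lama4, -0.050 to 0.045 for Lamc1 and -0.076 to 0.015 for Nid1.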
